A study of Mus musculus with 2 samples.

Results

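The signals of 10 genes that define T cells and natural killer (NK) cells were followed in sorted leukaemia cells of the B lineage: the CD3 chains Cd3d, Cd3e and Cd3g, the co-receptors Cd4 and Cd8a, the kinases Lck and Zap70, the surface protein Thy1, and the cytotoxic genes Nkg7 and Gzma. They were chosen by name, and a probe counted as theirs when the transcript accession in the array design matched the gene's symbol. Each of the 10 had a probe, 14 in all, and they stood among 20618 named genes of the array. The study sorted bone marrow cells of mice with B-cell acute lymphoblastic leukaemia, B-ALL (age on the labels: 8 weeks), with SoNar, a genetically encoded sensor whose excitation ratio follows the cytosolic NADH/NAD+ ratio. Cy3-labelled RNA of SoNar-high cells went to 1 one-colour Agilent array and that of SoNar-low cells to another. The sample titles use N-myc-high and N-myc-low, while the groups here follow the sensor label. How the leukaemia was made, the strain, how many mice were pooled and which surface markers were gated are not given in the sources used here. With 1 array per population there was no replicate and no test between populations, so precision is limited by how few arrays there are.

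The T-cell receptor has no signalling domain of its own and depends on the CD3 chains. Their cytoplasmic tails are phosphorylated by Lck, a Src-family kinase that binds CD4 and CD8. Phosphorylated tails recruit ZAP-70, a Syk-family kinase that passes the signal on. NK cells and killer T cells store granzymes such as granzyme A, and NKG7, a membrane protein of their granules. In bone marrow these genes mark the few mature T and NK cells there, but not all are exclusive to them: in the mouse, Lck and Zap70 are also transcribed in some B-lineage cells, Thy1 is abundant on neurons, and Cd4 is also carried by some dendritic cells.

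The arrays differed in how much they detected. A spot is called detected here where the scanner software marked it as well above background. Of 43020 non-control spots it did so for 44.8% on the SoNar-high array, against 72.9% on the SoNar-low array. The detection floor, the lowest detected signal, was 46.4 intensity units on the SoNar-high and 19.4 units on the SoNar-low array, or 0.113 and 0.0413 after each array was divided by its 75th percentile (409 and 470 units, in the same order). The arrays were scanned in separate sessions, and session and population therefore cannot be told apart. For 193 detected probes that are printed as 10 spots, the difference between single spots of the arrays had a median SD of 0.15 (log2), which covers the slide's spots and not sorts or mice. The dim Cd4 and Cd8a probes printed this way are not among them. Their spots had SDs of 0.46 and 0.52 on the SoNar-high array, and 0.43 and 0.11 on the SoNar-low array. Signals below are intensity units as the scanner software gave them, before scaling. Differences are log2 values after scaling, SoNar-high minus SoNar-low, and an error after one is that from the scanner software's own estimates. Signals of different probes are not read as relative amounts of RNA, because probes differ in how strongly they hybridise. The words bright and dim, the bands of level and the mean levels of lists refer to signal only.

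Most B-lineage markers were detected. Of 18 with a probe 14 were detected on both arrays, while of all 20618 named genes 10517 were. Among the 14 was Cd79b, a signalling chain of the B-cell receptor (12625 units in SoNar-high and 14377 units in SoNar-low cells). The other 4, the recombinase genes Rag1 and Rag2, the interleukin-7 receptor gene Il7r and the surrogate light chain gene Igll1, were detected on neither array. The 14 measured genes had a median difference of 0.28, from Cd22 (-1.10) to Ebf1 (0.98).

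Of the 10 T and NK genes, 7 were detected on both arrays, Cd3g and Cd8a on the SoNar-low array alone, and Cd3d on neither. Of the 7, Cd3e, Cd4 and Gzma were lower on the SoNar-high array by 2-fold or more and Thy1 was higher by 2-fold or more, while Lck (higher) and Nkg7 (lower) stopped just short of 2-fold and Zap70 lay near 0. In these bulk samples, fewer cells of a type and less RNA per cell cannot be told apart. Those counts are 3 of 7 lower and 1 of 7 higher, while of the 10517 genes detected on both arrays 4.38% were lower and 2.41% higher by 2-fold or more. The 7 had a median difference of -0.93 and all measured genes one of 0.22, with 4 members below 0 and 3 above, while 7039 of all 10517 lay above 0. Detection on the SoNar-low array alone, as in 2 of 10 members, held for 26.4% of all named genes. Of all 20618 named genes, 10517 were detected on both arrays and 4636 on neither.

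**Figure D1:**
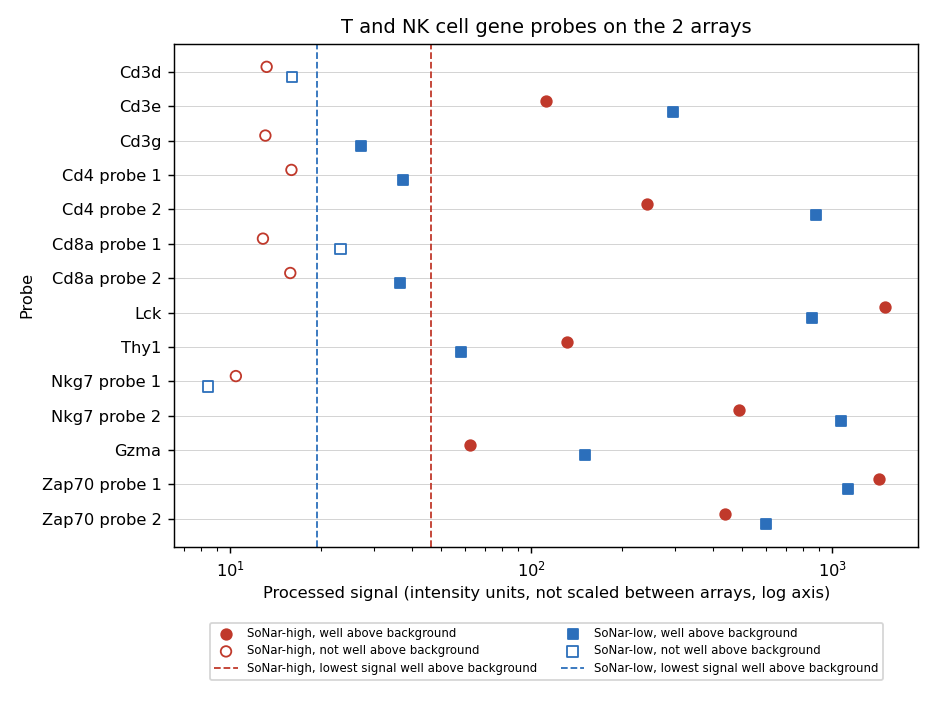
Processed signal (intensity units, log axis) of each of the 14 probes on the SoNar-high array (red circles) and the SoNar-low array (blue squares). Filled symbols were detected, open ones were not, and dashed lines mark each array's detection floor (46.4 and 19.4 units). For Cd3e, Gzma and the brighter probes of Cd4 and Nkg7 the blue square lies right of the red circle, and for Lck and Thy1 it lies left of it.

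The 3 CD3 chains are encoded side by side on mouse chromosome 9, yet only Cd3e, the chain that pairs with the other two in turn, gave a measured difference. Its probe had 112 units on the SoNar-high array, against 295 units on the SoNar-low array, a difference of -1.20 ± 0.26 (scanner error), or 2.30-fold lower, so the 2-fold threshold lies within its error. On the SoNar-high array that was 2.41 times the detection floor and on the SoNar-low array 15.2 times. Of all 10517 measured genes 313 lay lower. Cd3g, which pairs with CD3 epsilon, had 13.1 units on the SoNar-high array, not detected, against 27.1 units on the SoNar-low array, near that array's floor. No fold was given for it, since its scaled SoNar-low signal of 0.0576 lay under the SoNar-high floor. Cd3d, the third chain, had 13.2 and 16.0 units in the same order and was detected on neither array. Of 153 negative control spots, 147 lay below Cd3g on the SoNar-high array and 152 on the SoNar-low array. For Cd3d these were 147 and 151. The brightest negative control had 13.4 units on the SoNar-high array, above both chains. On the SoNar-low array it had 50.3 units, and 2 negative controls there were themselves marked as well above background. Detection at such levels, as for Cd3g and Cd8a on that array, is therefore not secure.

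The co-receptor gene Cd4, whose product binds MHC class II, had the largest difference of the 7 measured members. Its brighter probe had 243 units on the SoNar-high array, against 881 units on the SoNar-low array. That is -1.66 ± 0.22 (scanner error), 3.16-fold lower, with 109 of 10517 measured genes lower still. A second Cd4 probe, printed as 10 spots, was dim. Its spots had 10.8 to 24.2 units (median 15.4) on the SoNar-high array, none detected, against 23.3 to 53.8 units (median 40.8) on the SoNar-low array, where all 10 were. The scaled SoNar-low signal of this probe lay under the SoNar-high floor, so no fold is given for it, and the Cd4 difference rests on the first probe.

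Cd8a, the co-receptor chain that binds MHC class I, was detected on the SoNar-low array alone, and by 1 of its 2 probes. The probe printed as 10 spots gave 11.4 to 34.1 units (median 13.03, 9 spots kept) on the SoNar-high array, none detected, against 33.1 to 41.2 units (median 37.1, 8 spots kept) on the SoNar-low array, all detected. These units are before scaling, and the SoNar-high spots lay under that array's floor. The other probe had 12.8 units in SoNar-high and 23.2 units in SoNar-low cells and was detected on neither. No fold is given, because the scaled SoNar-low signal of 0.0777 lay under the SoNar-high floor.

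**Figure D2:**
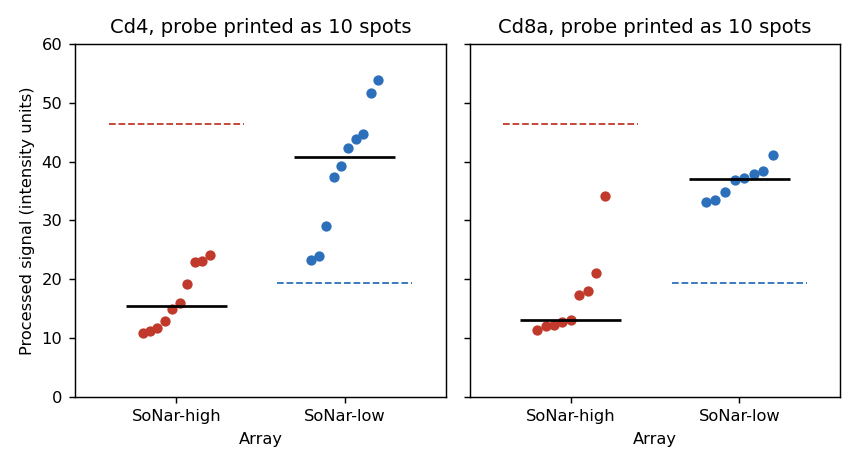
Processed signal of each spot kept of the Cd4 and Cd8a probes that are printed as 10 spots, on the SoNar-high array (red, left) and the SoNar-low array (blue, right), with the median as a black bar and each array's detection floor as a dashed line. All SoNar-high spots lie under that array's line (46.4 units) and all SoNar-low spots above theirs (19.4 units). Units are before scaling, so heights do not compare the arrays.

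The kinase genes did not follow Cd3e and Cd4. Lck had 1490 units on the SoNar-high array, against 858 units on the SoNar-low array, a difference of 1.00 ± 0.20 (scanner error). Unrounded it was 0.998 and so just under the 2-fold threshold, with 254 of 10517 measured genes higher. The signals were 32.1 and 44.2 times the arrays' floors, so neither lay near background. Zap70 had 2 probes with opposite signs. One had 1430 units on the SoNar-high and 1130 units on the SoNar-low array (0.54 ± 0.20), the other 440 and 603 units in the same order (-0.25 ± 0.21). Their mean of 0.14 was close to the median of all measured genes.

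RefSeq places 2 starts at Lck, and the transcripts that the array's 1 Lck probe reads were not looked up. The 250 bases before each start are shown because Lck is the bright T-cell gene that was higher, followed by those of Cd3e and Gzma, which were both lower. The build is GRCm38.p6, sequences run 5′ to 3′ on the gene's strand, and capitals mark matches on either strand to AGGAAG (a core of ETS family sites), TGTGGT (RUNX), CAGCTG and CACCTG (E-boxes) and CTTTGA (TCF/LEF).
Lck, upstream start, chr4:129573642-129573891, minus strand: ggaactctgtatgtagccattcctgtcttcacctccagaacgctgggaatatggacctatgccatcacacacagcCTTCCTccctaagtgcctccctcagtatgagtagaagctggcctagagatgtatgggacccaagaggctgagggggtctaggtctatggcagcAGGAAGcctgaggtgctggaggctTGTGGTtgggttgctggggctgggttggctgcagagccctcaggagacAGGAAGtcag
Lck, downstream start, chr4:129558373-129558622, minus strand: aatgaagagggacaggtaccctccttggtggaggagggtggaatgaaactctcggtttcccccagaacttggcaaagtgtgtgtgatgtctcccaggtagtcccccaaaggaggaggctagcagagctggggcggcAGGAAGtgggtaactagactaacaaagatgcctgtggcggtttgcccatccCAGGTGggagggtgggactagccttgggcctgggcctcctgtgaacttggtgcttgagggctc
Cd3e, chr9:45009612-45009861, minus strand: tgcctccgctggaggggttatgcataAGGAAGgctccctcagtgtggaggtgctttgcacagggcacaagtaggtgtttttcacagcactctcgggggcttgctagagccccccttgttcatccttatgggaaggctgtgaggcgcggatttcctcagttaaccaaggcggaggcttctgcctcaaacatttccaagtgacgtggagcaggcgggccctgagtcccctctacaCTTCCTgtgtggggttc
Gzma, chr13:113100982-113101231, minus strand: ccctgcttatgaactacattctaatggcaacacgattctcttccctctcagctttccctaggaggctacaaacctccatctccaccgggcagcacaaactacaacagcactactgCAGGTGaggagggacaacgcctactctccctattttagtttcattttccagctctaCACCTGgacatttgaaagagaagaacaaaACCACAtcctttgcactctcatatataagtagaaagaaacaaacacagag
The upstream Lck window held 3 AGGAAG matches and 1 TGTGGT match, and the downstream one 1 AGGAAG and 1 CACCTG match. The Cd3e window held 2 AGGAAG matches, and the Gzma window 2 CACCTG matches and 1 TGTGGT match. No matches overlapped within these 4 windows. Of 32851 RefSeq windows of this length 29.5% held AGGAAG, 14% TGTGGT, 17.2% CACCTG, 13.8% CTTTGA and 13% CAGCTG. The matches are letters only. Promoter windows were at hand for 8 of the 10 genes.

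Thy1, a glycolipid-anchored surface protein of T cells and neurons, was the member furthest above 0. It had 132 units on the SoNar-high array, against 58.5 units on the SoNar-low array, a difference of 1.37 ± 0.25 (scanner error), 2.59-fold higher. Of all measured genes 51 lay higher. Both signals were about as far above their floors, 2.84 and 3.02 times. Of 17 neuron marker genes with a probe, 9 were detected in SoNar-high and 11 in SoNar-low cells, 8 of them in both. These 8 ranged from -1.04 (Snap25) to 1.51 (Stmn3), with a median of -0.09. Past 2-fold lay 1 gene in each direction, beside 4.38% lower and 2.41% higher of all measured genes. Stmn3 was near background, with 62.9 units on the SoNar-high and 25.4 units on the SoNar-low array. These were 1.36 and 1.31 times the floors, and its scanner error was 0.43. Syt1, a synaptic vesicle gene, was at least 6.98-fold higher on the SoNar-high array, the only one where it was detected (118 units, against 16.0 units). A Camk2a probe went the other way. It was detected on the SoNar-low array alone, with SoNar-high lower by at least 3.59-fold (12.8 units, against 191 units). The other Camk2a probe, detected on both arrays, lay at -0.33. The part of neuronal RNA in the Thy1 value was not tested.

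The cytotoxic members were both lower. Gzma, which encodes granzyme A, had 62.3 units on the SoNar-high array, only 1.34 times the floor, against 150 units on the SoNar-low array. The difference was -1.07 ± 0.34 (scanner error), 2.09-fold lower, again with the threshold within the error. Nkg7 had 489 units on the SoNar-high array, against 1071 units on the SoNar-low array, by its brighter probe. That difference of -0.93 ± 0.21 is 1.90-fold, and both signals were over 10 times the floors (10.6 and 55.2). The second Nkg7 probe had 10.4 and 8.41 units and was detected on neither array, so the gene rests on 1 probe.

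**Figure D3:**
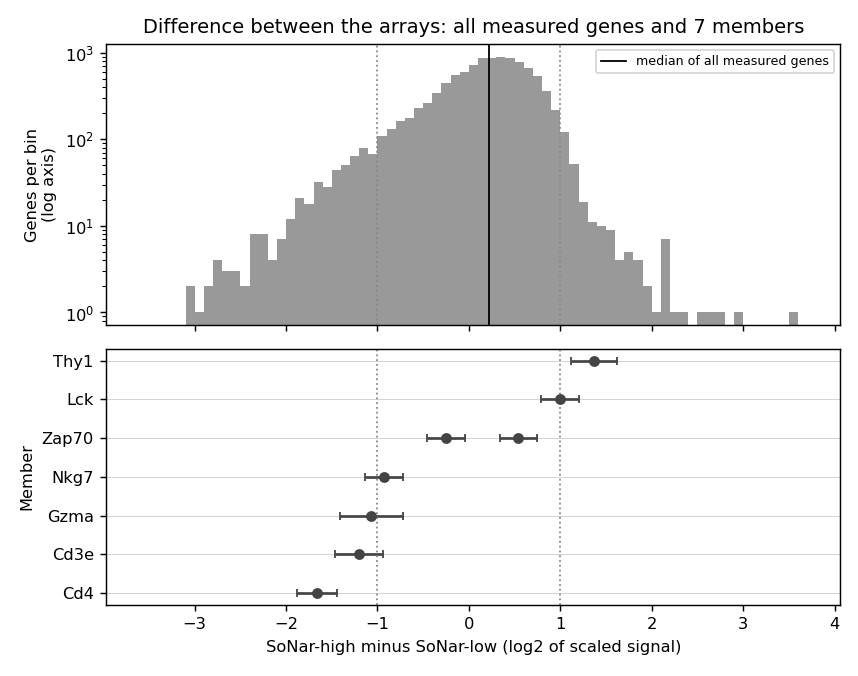
Top, number of genes (log axis) by difference SoNar-high minus SoNar-low (log2 of scaled signal) for the 10517 genes detected on both, with their median of 0.22. Bottom, the 8 measured probes of 7 members, with bars for the scanner software's error and dotted lines at 2-fold, from Cd4 at -1.66 to Thy1 at 1.37.

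Dimmer genes were lower more often over the whole array. When all measured genes were put into 4 bands of equal size by mean level, 7.65%, 6.16%, 2.74% and 0.989% were lower by 2-fold or more, from the dimmest band to the brightest. Cd3e, Gzma and Thy1 fell in the dimmest band, where 3.8% were higher by 2-fold or more, and Cd4 in the next. Lck, Nkg7 and Zap70 fell in the third, where 2.62% were higher, and no member fell in the brightest.

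The other genes of T and NK cells lay on both sides of 0. Beside the 10 members 63 such genes had a probe. Of these, 18 were detected on both arrays and 23 on neither, while of all 20618 named genes 10517 and 4636 were. A further 22 were detected on the SoNar-low array alone (26.4% of all named genes were). On the SoNar-high array alone 0 were (0.0534% of all named genes were). The 18 had a median of 0.07, with 10 above 0 and 8 below (7039 of 10517 of all genes lay above). Of them 3 were lower by 2-fold or more and 0 higher, beside 4.38% and 2.41% of all measured genes. Of the 22, none had a bound of 2-fold, which 6% of such genes over the whole array had. The largest was that of the chemokine gene Ccl5, with SoNar-high lower by at least 1.77-fold (21.9 units, not detected, against 94.4 units).

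Within the cytotoxic and NK list, 5 of 22 genes were detected on both arrays, 8 on the SoNar-low array alone and 9 on neither. Prf1, the pore-forming protein that lets granzymes into a target, had 77.6 units on the SoNar-high array, against 199 units on the SoNar-low array (-1.16 ± 0.29, scanner error). Ctsw, a cathepsin of killer cells, had 76.0 and 175 units in the same order (-1.0003 ± 0.29), so both had the 2-fold threshold within their error. The granzyme genes Gzmm and Gzmk lay on the other side of 0. Gzmm had 774 units on the SoNar-high and 512 units on the SoNar-low array (0.80), and Gzmk 206 and 172 units in the same order (0.46). Of the NK-cell receptor genes, Klrb1c was detected on neither array, and Ncr1, which encodes NKp46, had 9.32 units on the SoNar-high array, against 27.1 units on the SoNar-low array, where it was detected near the floor.

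Among signalling genes downstream of the receptor, 4 of 14 were measured. Rasgrp1, an activator of Ras, had 498 units on the SoNar-high array, against 307 units on the SoNar-low array (0.90). The adaptor gene Skap1 lay at 0.62, Sit1 at 0.14 and Lat, the membrane scaffold phosphorylated by ZAP-70, at -0.09. None of these passed 2-fold. Of 12 other T-cell surface genes 3 were measured: the adhesion gene Cd2, also found on B-lineage cells in the mouse (0.68, with 2 probes at 0.67 and 0.70), Cd6 (0.21, with probes at -0.11 and 0.53) and Cd5 (-0.56). In the receptor complex itself, Cd247, the zeta chain, was detected on the SoNar-low array alone (11.5 units in SoNar-high and 26.2 units in SoNar-low cells), and the pre-T-cell receptor gene Ptcra lay at -0.10. The T-cell receptor constant genes Trac, Trbc1, Trbc2 and Trdc matched no probe and could not be read.

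Of 13 transcription factors of T and NK cells 5 were measured. Zbtb7b, the factor that commits thymocytes to the CD4 lineage, was the 1 past 2-fold, with 376 units on the SoNar-high array, against 867 units on the SoNar-low array by its bright probe (-1.003 ± 0.21, with the threshold within the error). Its other 2 probes were detected on the SoNar-low array alone. Runx3 (-0.20) and Lef1 (-0.16) lay below 0, and Foxp3 (0.22) and Zbtb16 (0.77) above it.

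**Figure D4:**
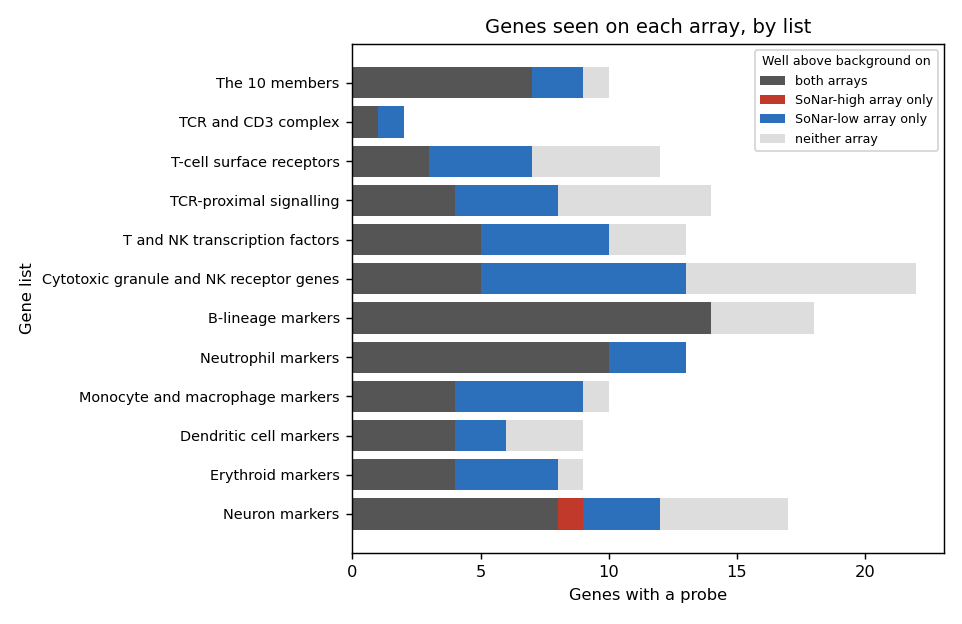
Number of genes with a probe (bar length) that were detected on both arrays, on the SoNar-high array alone, on the SoNar-low array alone or on neither, for the 10 members, the 5 lists of other T and NK genes and 6 lists of other cells. Of the T and NK genes besides the members 0 were detected on the SoNar-high array alone and 22 on the SoNar-low array alone. Among all named genes these shares were 0.0534% and 26.4%. On both arrays 14 of 18 B-lineage genes were detected, and 10517 of all 20618 named genes.

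In several lists of markers of other marrow cells most measured genes lay below 0. Of 13 neutrophil genes with a probe 10 were measured. Their median was -0.53, with 8 below 0, from Ngp (-1.24), a granule protein gene, to Prtn3 (0.37), which encodes proteinase 3. Of 10 monocyte and macrophage genes 4 were measured (median -0.70, from Csf1r at -1.19 to Mrc1 at 0.62) and 5 were detected on the SoNar-low array alone. Erythroid genes, 4 of 9 measured, had a median of -1.02, from the globin gene Hba-a1 (-1.82) to Hemgn (0.89). Of 9 dendritic cell genes 4 were measured, 3 of them above 0 (median 0.43, from Siglech at -0.90 to Ccr9 at 0.95). A further 2 were detected on the SoNar-low array alone. Siglech, the 1 below 0, had 9877 units in SoNar-high and 21221 units in SoNar-low cells by its brighter probe. The other Siglech probe had 11.9 and 9.36 units in the same order and was detected on neither array. The mean level of each list's measured genes on the SoNar-high array, against that on the SoNar-low array, was 0.72 and 1.20 for neutrophils, -2.29 and -1.80 for monocytes and macrophages, 0.65 and 1.39 for erythroid cells, and 1.504 and 1.28 for dendritic cells (log2 of scaled signal). How far the share of such cells in each sort bears on the T and NK values was not tested.

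The place of the members relative to 2-fold moved with the processing. For a gene with 1 measured probe, the brightest-probe rule and the background call at 3 SD of the negative controls returned the main value. So did no filter on dim probes for Cd3e, Lck, Thy1 and Gzma, and the stricter filter for Lck and Nkg7. Keeping flagged spots hardly moved the members (Cd4 at -1.662, against -1.659 in the main setting). The ranges of these genes therefore rest on the other alternatives. Cd4 ranged from -1.96 to -1.09. Thy1 ranged from 0.93, under 2-fold, with normexp background correction to 2.02. Cd3e ranged from -1.50 to -0.63 and Gzma from -1.36 to -0.47, and both were under 2-fold with scaling to the median, quantile normalization and normexp. Gzma was also under 2-fold with loess and in the series matrix. Nkg7 ranged from -1.23 to -0.21. Lck ranged from 0.70 to 1.56 and passed 2-fold with scaling to the median. Zap70 crossed 0, from -0.15 to 0.71. Scaling to the median moved the median of all genes by 0.57, the 75th percentile over probes detected on both arrays by -0.30, and loess on the level by -0.17. Relative to that median, Lck lay between 0.55 and 0.95 and Cd4 between -1.93 and -1.39. Scaling to the median and to that 75th percentile shifts all genes alike and cannot move these values. Both therefore gave the main setting's 0.77 for Lck and -1.88 for Cd4.

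**Figure D5:**
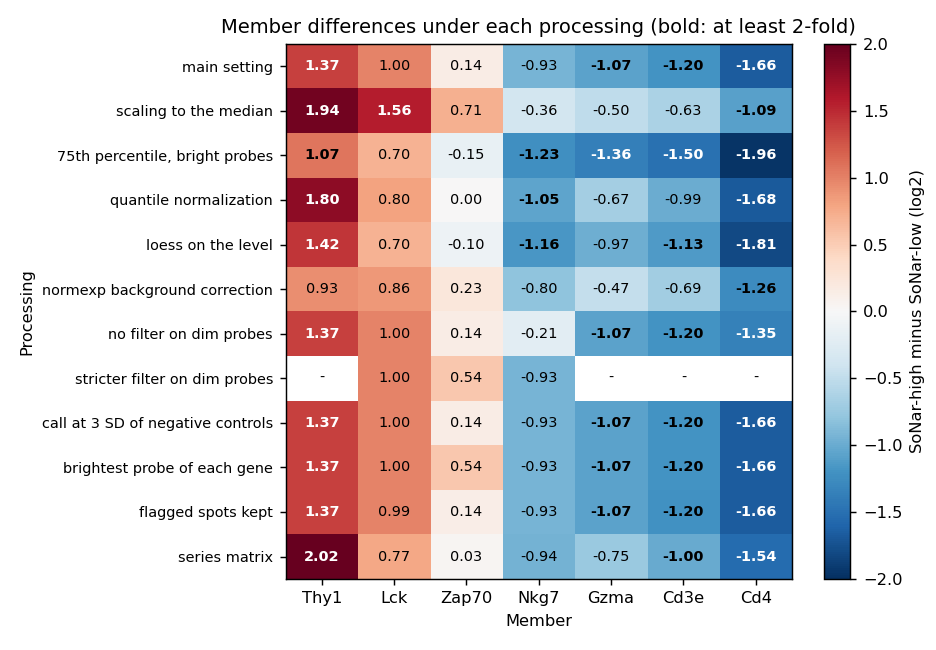
Difference SoNar-high minus SoNar-low (log2, colour and number) of the 7 measured members, under the main setting and 11 alternatives, with bold numbers at 2-fold or more and a dash where the filter left no probe. Thy1 and Lck are above 0 and Nkg7, Gzma, Cd3e and Cd4 below 0 wherever a value is given, and Zap70 has both signs.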

How the data were processed

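Total RNA of each sorted population was labelled with Cy3 and hybridised to 1 array, per the labels' protocols. The authors deposited 1 scanner file per array, with 1-colour intensity values for each spot. Per the file headers they came from Agilent Feature Extraction 11.0.1.1 and an array design of build mm9 (version 9.1 in the submitters' processing notes). Per the file headers, this processed intensity had its background subtracted and was not scaled between arrays. The flags in the same deposited files, named other in the table of units, are the scanner software's. The deposited series matrix is on a log2 scale. Its columns followed their own arrays in rank (Spearman's rho 1.000 across probes), with a median of 5.90 on both and sorted values within 0.035. Its differences ran the same way as those computed from the scanner signals (rho 0.813 across probes). The sources used here do not state its centring.

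Control spots were left out, and so were spots flagged as non-uniform (1 in SoNar-high and 350 in SoNar-low) or as population outliers (189 and 156). No spot was saturated. Log2 signals were averaged over a probe's spots, and each array's 75th percentile over 39085 probes was subtracted. A probe counted as detected if over 50% of its spots were well above background. Accessions were matched without versions to RefSeq symbols (GRCm38.p6, for names only), which named 27115 probes. Gene differences are means over the probes detected on both arrays, and 2-fold is a cut-off of size only. A bound is the bright array's scaled value over the higher of the other array's floor and the dim probe's own value. The error after a difference combines the software's error estimates of both arrays. The 10 members, the 5 T and NK lists, the 6 lists of other cells and the rule for named genes were chosen with earlier results of these data known. That rule took all members, the 2 highest and 2 lowest measured genes of each T and NK list, T and NK genes past 2-fold, bounds past 2-fold, and the extremes of each other list. Further genes (Ccl5, Syt1, Camk2a, Klrb1c, Ncr1, Cd247, Cd79b and the 4 undetected B-lineage genes) were named after their values were seen. The gene step was tested on simulated data. The alternatives are those plotted for the members, and thresholds of 1.5-fold and 3-fold. Normexp used the median spot signal. Analyses used Python 3.11.15 with numpy 2.4.6 and pandas 2.3.3, and R 4.3.3 with limma 3.58.1.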

Additional observations from a re-analysis of the deposited data

How the results depend on the processing

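The counts of members past 2-fold, 1 higher and 3 lower, and the median of -0.93, rest on 7 genes, 6 of them with 1 measured probe, and on 1 array per population. Scaling to the median gave 2 higher and 1 lower (median -0.36), normexp background correction 0 higher and 1 lower (-0.47), and the stricter filter on dim probes, which left Lck, Zap70 and Nkg7, 0 and 0 (0.54). The median was -1.23 with the 75th percentile over probes detected on both arrays, -0.67 with quantile normalization, -0.75 with the series matrix and -0.52 over all 10 genes with no filter on dim probes. A threshold of 1.5-fold gave 2 higher, and one of 3-fold gave 0 higher and 1 lower. No member past 2-fold changed sign under an alternative that gave it a value, though some of these cannot move a gene with 1 measured probe. The share of higher among all genes past 2-fold was 35.4%, but 96.1% after scaling to the median, 6.69% with the 75th percentile over bright probes, 47.1% with quantile normalization, 18.2% with loess, 23.1% with normexp, 56% with the stricter filter, 21% with the call at 3 SD of the negative controls, and 54.6% in the series matrix. The spots near background limit what can be said of Cd3d, Cd3g and Cd8a. No paired analysis was possible because each population had 1 array.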
